A study of Homo sapiens with 7 samples.

Results

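The hairpin sh4 was compared with the lacZ control hairpin across the whole transcriptome of 501Mel cells, a human melanoma line of melanocytic type. Every gene with a mean normalized count of at least 10 over the 7 libraries was taken, which gave 15420 of the 21305 genes in the table. The cells carried a doxycycline-inducible short hairpin RNA, a transcript that the cell cuts into a small guide RNA against a matching RNA, and all groups received doxycycline. The control group expressed shlacZ, directed at a bacterial gene (n = 3), while the sh4 group (n = 2) and the sh8 group (n = 2) expressed a hairpin against the long non-coding RNA GRASLND. Each line was a pool of puromycin-selected lentiviral transductants and not a clone, so that hairpin, integration and selection travel together, and the libraries of a group are not stated to come from separate transductions. The p-values therefore measure only the spread between these libraries, which may be technical. The 2 groups sh4 and sh8 share the same shlacZ libraries, and a change was called particular to sh4 only where sh4 was also tested directly against sh8.

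Melanocytes make pigment in melanosomes under the control of the transcription factor MITF, with SOX10 and PAX3 upstream of it. Melanoma cells can move away from this state towards an undifferentiated one, in which pigment genes are low and genes of adhesion, matrix and migration are high. The lacZ hairpin is directed at no human gene. Any of these hairpins, the lacZ hairpin included, can also act on other transcripts through a short seed. For that reason the values of sh8 are given beside those of sh4 for many genes and lists, but not for all of them. A change given without sh8 values or a difference from sh8 is not to be read as particular to sh4.

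Libraries held 13337317 to 22855232 reads, and counting error covers only part of the spread for genes with few reads. The first shlacZ library stood apart from the other shlacZ libraries. Its median absolute log2 difference from them over all tested genes was 0.315 and 0.284, against 0.159 between the second and the third, 0.216 between the sh4 libraries and 0.246 to its nearest sh8 library. Distances between shlacZ and sh4 libraries ran from 0.349 to 0.449. Defining markers of the melanocytic lineage were abundant in each shlacZ and sh4 library, with MITF at 22076, 20552 and 17326 in shlacZ and 12619 and 11635 under sh4. Markers of other cell types were summed per library. Of 16 lymphoid markers 2 were in the table, and their sum was 20.6 to 26.2 in shlacZ and 355 to 357 under sh4, of which GNLY gave 0 to 12.4 and 0 and ZAP70 the remainder. Of 14 myeloid markers 4 were in the table, with sums of 501 to 676 and 920.4 to 939, and the members beside LYZ summed to 496 to 676 and 447 to 584. Of 10 endothelial markers RNASE1 and ESAM were in the table, with sums of 6.19 to 18.3 and 316 to 399, and ESAM stood at 5.16 to 9.57 and 3.73 to 4.52. In each of these lists 1 member, ZAP70, LYZ or RNASE1, was called higher. Fibroblast markers (4 of 10 in the table) summed to 9.43 to 25.8 and 16.9 to 31.3, keratinocyte and epithelial markers (4 of 14) to 221 to 261 and 215 to 234, and neural markers (7 of 16), which melanocytic cells share in part, to 3240 to 3485 and 2764 to 2831, so that the neural sum was lower in both sh4 libraries than in any shlacZ library.

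GRASLND (chromosome 2 from 6911754 to 6918734 on the minus strand, hg38), a long non-coding RNA, was measured first, since it is the gene the hairpin targets. It lay at 309, 329.9 and 289.7 normalized counts (reads per gene divided by a size factor of the library) in the shlacZ libraries and at 175 and 131 under sh4, so that both sh4 libraries were under all 3 shlacZ libraries. The mean under sh4 was 49.5% of the control mean. The log2 fold change, taken on log2(normalized count + 1) in limma, was -1.02 (SE 0.21, adjusted p 0.00662). The exact two-sided permutation test gave 0.1, which is the smallest p that 10 splits of 2 against 3 libraries allow. RNF144A, an E3 ubiquitin ligase gene on the plus strand (6917412 to 7068286) that overlaps GRASLND, stood at 3626, 3276 and 3192 in shlacZ, 2556 and 2075 under sh4 and 3455 and 3503 under sh8. Its log2 fold change under sh4 was -0.54 (adjusted p 0.0123), and the difference between sh4 and sh8 was -0.59 (adjusted p 0.0295). It passed the adjusted p in both comparisons without reaching the fold needed for a call. Strand use in counting was not stated, so reads of GRASLND and RNF144A in the shared stretch cannot be told apart. GRASLND (-0.97 without the second shlacZ and -0.82 without the second sh4) lost the call when that library was left out, with the log2 fold change in brackets.

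A gene was called when its Benjamini-Hochberg adjusted p was under 0.05 and its absolute log2 fold change over 1. In this sense 739 genes rose (4.79% of those tested) and 520 fell (3.37%), and "rose" and "fell" are used below only for called genes. The shares of 4.79% and 3.37%, or 8.16% in either direction, are the background for each count of called members below. At the adjusted p alone 1624 genes were higher (10.5%) and 1840 lower (11.9%). The median log2 fold change over all tested genes was -0.01. Both sh4 libraries lay above all 3 shlacZ libraries for 25.1% of the tested genes and below them for 25.6%. All 739 genes that rose and all 520 that fell were separated in this way. Leaving out the second sh4 library gave 385 genes higher and 384 lower, and leaving out the first gave 488 and 464, since a single library then stands for the group. The strongest changes were mostly rises, with 27 genes over a log2 fold change of 4 against 4 under -4. A gene low in the control can fall only to the floor of the scale, while its rise has no such bound. The minimum mean covers all libraries, so genes nearly silent in the control were tested only where a hairpin group was higher. The imbalance is thus partly built in, most of all among low genes. The second sh4 library lay farther from the control in 424 of the 739 rises and in 334 of the 520 falls.

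**Figure D1:**
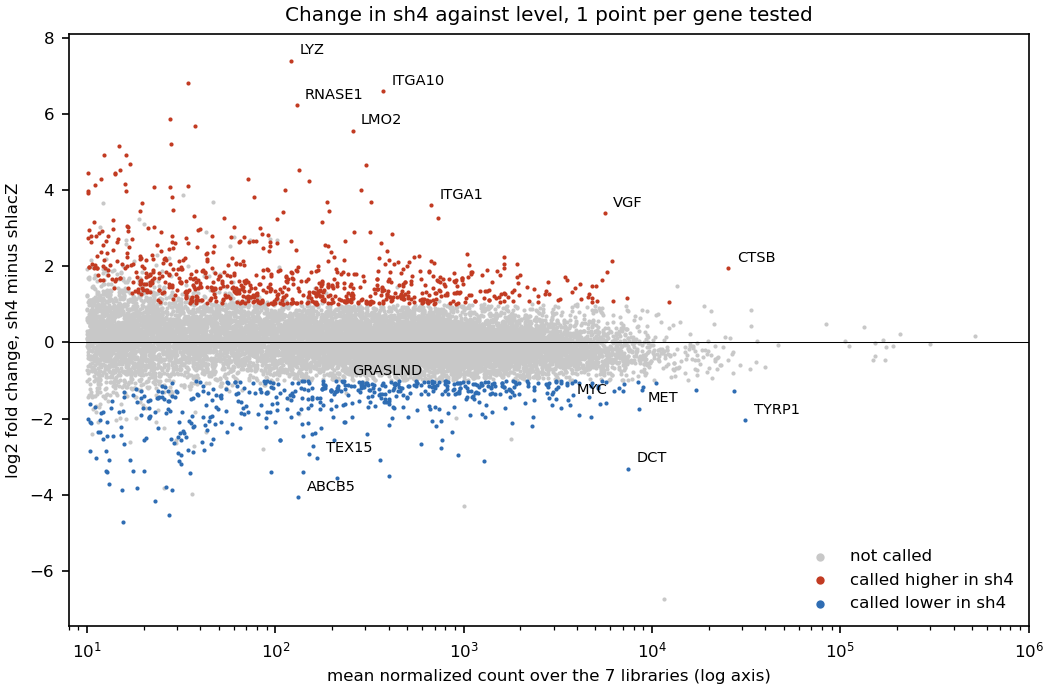
Each point is 1 of the 15420 tested genes, placed by its mean normalized count over the libraries (log axis) and its log2 fold change under sh4 against shlacZ. The 739 genes that rose and the 520 that fell are coloured, and rises reach farther from 0 than falls, above all among genes of low level. The floor of the scale and the minimum mean build in part of this imbalance.

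Low and high genes moved differently on balance. The floor of the scale and the minimum mean bear on the low genes here as well. Among the 3370 genes with a mean of 10 to 50 the median log2 fold change was 0.19, and among the 1917 with a mean over 2000 it was -0.18. Of the former 7.06% rose and 3.77% fell, and of the latter 1.67% rose and 3.13% fell. Protein-coding genes rose more often than they fell (607 and 375 of 11908), while long non-coding RNAs were called lower slightly more often than higher (123 and 110 of 2569).

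The highest rises, where a mean of 50 over the 5 libraries was required, included those of secreted, adhesion and signalling genes. LMO2, a LIM-domain adaptor of transcription factor complexes best known from blood cell development, lay at 5.16, 24.1 and 29.6 in shlacZ and at 661 and 949 under sh4 (log2 fold change 5.56, SE 0.57, adjusted p 0.000246). Both sh4 libraries were far above every shlacZ library and above sh8, where LMO2 stood at 58 and 71.9. COL22A1, a collagen of tissue junctions, rose from 8.26, 28.3 and 38.3 to 499 and 343 (4.24, adjusted p 0.000591). EXPH5, an effector of the RAB27 GTPases that move melanosomes and other vesicles, rose from 82.6, 45 and 76.6 to 724 and 1017 (3.68, adjusted p 8.00e-05). CRIP2, a LIM-domain protein, stood at nearly the same level in all 3 control libraries (14.4, 14.7 and 14.8) and at 208 and 229 under sh4. ATP6V1C2, which encodes a subunit of the proton pump of acidic organelles, rose from 13.4, 19.9 and 28.7 to 267 and 409. The sh8 libraries held 27.7 and 22.8 of it, within the range of the control. LYZ, ITGA10, RNASE1, OTULINL, ZAP70, TMEM158 and STC1 made up the remainder of the 12 highest, with log2 fold changes from 4.01 to 7.40.

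The deepest falls included some genes of cilia and of the germ line. No list of cilia genes was tested, and DNAH7, a dynein of cilia, rose (2.47). ABCB5, a drug transporter of pigment cells, fell from 198, 296 and 241 to 12.4 and 14.9, the largest fall of this set (-4.05, SE 0.25, adjusted p 4.57e-05). SPEF2, a protein of sperm and cilia axonemes, lay at 317, 259 and 176 in shlacZ and 27.1 and 17.9 under sh4, and CFAP61, another axonemal protein, at 939, 439 and 466 and 94.9 and 47.8. CDH7, a cadherin of the neural crest, held 181, 168 and 169 in shlacZ and 16.9 and 14.2 under sh4. These genes were also tested against sh8 and were lower under sh4, with differences of -1.95 for SPEF2 (adjusted p 0.0130), -1.93 for CFAP61 (adjusted p 0.0183) and -1.79 for CDH7 (adjusted p 0.00758). Of the transcripts without a protein, LINC02223 fell from 2558, 2312 and 1956 to 317 and 219 and LURAP1L-AS1 from 287, 221 and 212 to 40.7 and 23.1. PLCH1-AS1, PRDM7, UBAP1L and PI15 fell by 2.76 to 3.55 on the log2 scale with differences from sh8 that did not pass the test. PRDM7 has a close paralog that can share its reads, so its level is uncertain.

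Pigment genes fell under sh4, but not all of them. Of 39 tested pigment and melanosome genes 13 fell and 1 rose, 22 passed the adjusted p in the lower direction, and the median log2 fold change was -0.48 against -0.01 over all genes and -0.15 in the same list under sh8. The shares called lower and higher over all genes were 3.37% and 4.79%. DCT, the dopachrome tautomerase of eumelanin synthesis, was the most reduced of the melanin enzymes, from 16036, 11423 and 9970.3 in shlacZ to 1704 and 893 under sh4 (-3.31, adjusted p 8.48e-05). TYRP1, which acts after tyrosinase in the same pathway, fell from 36836, 52194 and 45912 to 10416 and 11194 (-2.04, adjusted p 8.00e-05). Tyrosinase itself did not follow them. TYR, the rate-limiting enzyme, lay at 8795, 8192 and 9420.5 in shlacZ and 10288 and 9183 under sh4, and the ranges of the groups overlapped (0.15, adjusted p 0.464). SLC45A2, a transporter needed in the melanosome, was at 5130.4, 8374 and 7664 and 6222 and 8077 (0.04, adjusted p 0.918).

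Other falls in this list were those of PMEL, which builds the melanosome fibrils (-1.27, and -0.987 with quantile scaling, short of a call), of the melanosomal antigen MLANA (-1.59), of the cation channel TRPM1 (-2.11), of the proteoglycan BCAN (-2.09) and of the endothelin receptor EDNRB (-1.62). EDNRB went from 6186, 6816 and 7591 to 2426 and 2032, with sh8 at 5267 and 6525. The exception was SLC24A4, an ion exchanger of the family that also serves the melanosome, which rose from 165, 192 and 220.1 to 1022 and 684 and stood at 726 and 587 under sh8. Against sh8, sh4 was lower by the same thresholds for 9 of the 13 genes that fell, among them ABCB5, DCT, TRPM1, BCAN, TYRP1, TSPAN10, EDNRB and MLANA. The differences ran from -2.48 for ABCB5 to -1.01 for MLANA.

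**Figure D2:**
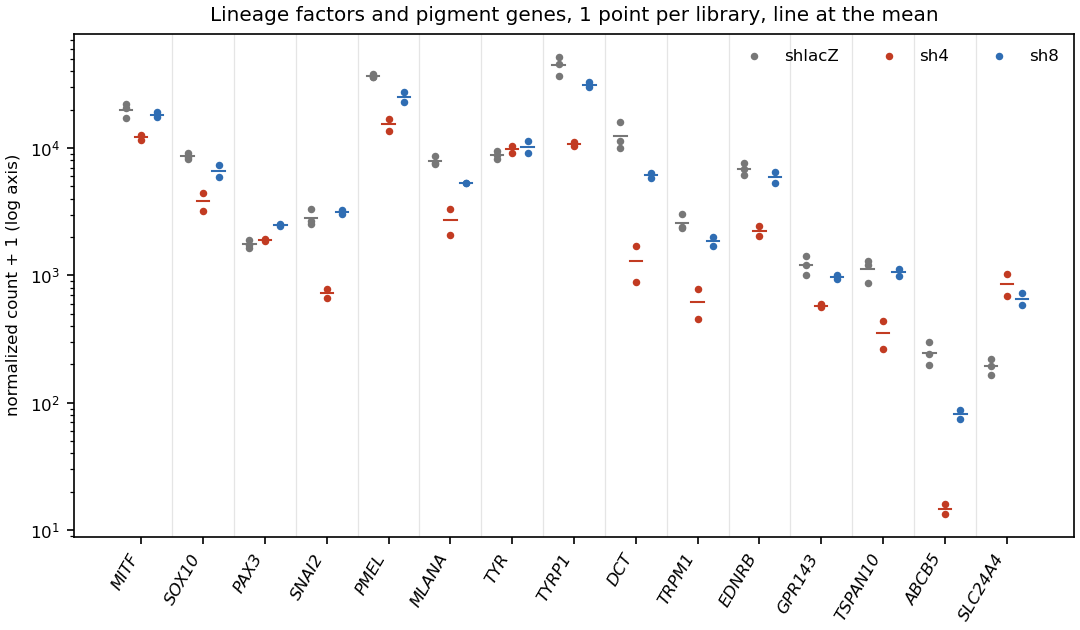
Normalized count + 1 (log axis) of pigment genes in each of the 7 libraries, with 1 point per library, the shlacZ, sh4 and sh8 groups side by side and a line at each mean. For DCT, TYRP1, MLANA and EDNRB both sh4 points lie under all shlacZ and sh8 points, while for TYR the groups overlap.

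Of 16 tested melanocyte lineage factors 3 fell and 2 rose (31.25% called against 8.16% over all genes). SOX10, the factor that opens the lineage program, fell from 8259, 8523 and 9084 to 4410.1 and 3213 (-1.19, SE 0.15, adjusted p 0.000793). MITF was lower with -0.71 (adjusted p 0.00483) and was not called, and PAX3 lay at 1643, 1909 and 1746 in shlacZ and 1939 and 1858 under sh4 (0.11, adjusted p 0.545). SNAI2, a zinc finger repressor of the neural crest that melanocytes need, fell under sh4. Its values were 2663, 3327 and 2543 in shlacZ, 779 and 668 under sh4 and 3289 and 3013 under sh8, and sh4 was below sh8 by -2.12 (SE 0.16, adjusted p 0.000417). TFEB, the lysosomal relative of MITF, fell (-1.75). TFAP2C (1.76) and LEF1 (1.73), a partner of beta-catenin, rose. None of TFEB, TFAP2C and LEF1 was shown to differ from sh8 (adjusted p 0.269, 0.260 and 0.0640 by limma). SOX10 (-0.97 without the second sh4) and TFAP2C (1.57 without the first sh4) no longer passed both thresholds without the library given.

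MITF binds the letters TCATGTG, and the promoters of the genes called were searched for this heptamer and its reverse complement CACATGA in the 250 bases before the start that RefSeq gives. A promoter was matched for 10469 tested genes. The heptamer was present in 1.41% of all of them, in 3.90% of the promoters of genes that fell (13 of 333) and in 2.15% of those of genes that rose (11 of 512). The E-box CACGTG, which MYC also binds and which does not contain the heptamer, was present in 8.85%, 7.81% and 6.05% of the same sets. The AP-1 letters TGANTCA were in 3.67%, 6.31% and 5.66%, the LEF1 letters CTTTGAT in 1.36%, 0.601% and 1.56%, and the STAT letters TTCCNGGAA in 0.955%, 0.300% and 0.586%. Among the 13 were the pigment genes TYRP1, TSPAN10 and GPR143, and TRIM63, a muscle ubiquitin ligase that melanocytic cells also express. The remaining falls with the heptamer were not on the pigment list, IGF1 and KCNK2 among them. The 11 rises with it included RUNX2, CD28 and STRA6. The promoter of TYR, which was not called, also held the heptamer. Of the 13 pigment genes that fell 10 had a matched promoter, and 3 of these held it, while 3 of 20 promoters of pigment genes that were not called did so. DCT, MLANA, TRPM1, BCAN and EDNRB were among the falls without a match. The heptamer thus stood in pigment genes of both kinds, and the promoters of TYR, of the 3 that fell and of TRIM63 are shown, with the heptamer in capitals, on the strand of the gene, from the RefSeq annotation of GRCh38.p14.
TYR, chr11:89177625-89177874, plus strand: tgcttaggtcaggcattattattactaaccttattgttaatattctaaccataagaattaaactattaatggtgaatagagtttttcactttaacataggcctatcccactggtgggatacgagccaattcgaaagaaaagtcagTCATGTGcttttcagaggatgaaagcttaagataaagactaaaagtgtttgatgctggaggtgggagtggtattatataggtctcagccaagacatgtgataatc
TYRP1, chr9:12693135-12693384, plus strand: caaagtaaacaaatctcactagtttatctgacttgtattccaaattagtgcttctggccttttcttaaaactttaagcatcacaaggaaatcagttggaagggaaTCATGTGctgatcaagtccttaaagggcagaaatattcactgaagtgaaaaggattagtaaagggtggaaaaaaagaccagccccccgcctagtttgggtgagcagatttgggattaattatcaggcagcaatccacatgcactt
TSPAN10, chr17:81642055-81642304, plus strand: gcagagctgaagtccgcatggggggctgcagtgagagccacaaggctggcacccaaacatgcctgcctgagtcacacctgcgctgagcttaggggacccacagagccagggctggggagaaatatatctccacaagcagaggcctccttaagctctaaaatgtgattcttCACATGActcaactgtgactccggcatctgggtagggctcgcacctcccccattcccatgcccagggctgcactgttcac
GPR143, chrX:9765848-9766097, minus strand: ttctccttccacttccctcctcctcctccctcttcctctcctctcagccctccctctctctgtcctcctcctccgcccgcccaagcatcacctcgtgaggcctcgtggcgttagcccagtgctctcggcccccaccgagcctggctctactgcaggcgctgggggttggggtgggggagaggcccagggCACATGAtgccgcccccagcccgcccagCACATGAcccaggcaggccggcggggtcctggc
TRIM63, chr1:26067631-26067880, minus strand: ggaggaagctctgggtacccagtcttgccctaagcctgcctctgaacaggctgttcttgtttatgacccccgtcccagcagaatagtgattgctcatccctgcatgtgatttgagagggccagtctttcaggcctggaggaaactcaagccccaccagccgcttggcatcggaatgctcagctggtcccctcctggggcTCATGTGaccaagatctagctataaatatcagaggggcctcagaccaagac
The match lay 105 bases before the start in TYR, 145 in TYRP1, 80 in TSPAN10, 51 in TRIM63, and 61 in GPR143, which held 2 matches. TSPAN10, a tetraspanin of pigment cells, fell from 869, 1302 and 1196 to 440.4 and 265, GPR143, a melanosomal receptor mutated in ocular albinism, from 1007, 1418 and 1207 to 595 and 561, and TRIM63 from 539.8, 626 and 506 to 269.9 and 214. A match of letters is a description and does not show binding. GPR143 (-0.93 without the second shlacZ) ceased to be called in those fits.

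Of 41 genes of the undifferentiated melanoma state 20 were tested, 6 of them rose and 0 fell, against 4.79% and 3.37% over all genes, and 7 were higher and 1 lower at the adjusted p. Without either sh4 library 3 members were called higher, and without the first shlacZ library 1 was called lower. The summed level of the list, 32583 to 40180.0 in shlacZ and 30643 and 39075 under sh4, overlapped between the groups. CAV1, the coat protein of caveolae, rose from 432, 471 and 579 to 1283 and 1693 (1.59, adjusted p 0.000330). FOSL2, a subunit of the factor AP-1, rose from 393, 393 and 605 to 1211 and 1122, and PLAUR, the urokinase receptor, from 18.6, 15.7 and 21.7 to 47.4 and 57.5. VIM, an intermediate filament of mesenchymal cells, lay at 19982, 23772 and 22910.5 in shlacZ and 17147 and 18903 under sh4 (-0.30, adjusted p 0.111). TMEM158 is the 1 gene of the 6 that also differed from sh8. FOSL2 (1.30 without the first sh4 and 1.41 without the second sh4) and PLAUR (1.33 without the second shlacZ, 1.58 without the first sh4 and 1.31 without the second sh4) fell short of a call in these fits.

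Of 13 tested integrins, the receptors by which cells hold to matrix, 5 rose and 0 fell, against 4.79% and 3.37% over all genes. All 5 were also higher than under sh8, as were 1.34% of all tested genes. ITGA1, a collagen-binding alpha chain, rose from 129, 129.9 and 157 to 1561 and 1858 with sh8 at 361 and 499.6 (3.61, SE 0.18, adjusted p 1.91e-05). ITGA10, another collagen-binding chain, stood at 10.3, 11.5 and 13 in shlacZ, 1522 and 975 under sh4 and 38.2 and 33.7 under sh8. The laminin-binding chains ITGA3 and ITGA6 rose as well, ITGA3 from 121, 128 and 165 to 369 and 365 and ITGA6 from 1066, 1379 and 1207 to 2526 and 3972. ITGAX, best known from myeloid cells, rose from 9.29, 1.05 and 7.83 to 50.8 and 41.8, with 0 and 3.64 under sh8. The differences of sh4 from sh8 for these genes ran from 1.22 for ITGA6 to 5.05 for ITGA10. ITGAX (2.30 without the second shlacZ, 2.91 without the first sh4 and 3.18 without the second sh4) lost the call when that library was left out.

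Among collagens and laminins, the matrix proteins these receptors bind, 7 of 26 tested genes rose and 1 fell (30.8% called against 8.16% over all genes). Without the second sh4 library 4 rose and 0 fell, and without the third shlacZ library 0 fell. COL9A3 rose from 158, 239 and 169.6 to 786 and 598 (1.88, adjusted p 0.000430) and LAMB1 from 1246, 1881 and 1648 to 3128 and 5047 (1.34, adjusted p 0.00225). LAMB1 was as high under sh8, at 3139.8 and 3069.7. LAMB3, a chain of the basement membrane of epithelia, lay at 1.03, 1.05 and 0.87 in shlacZ and at 23.7 and 38.8 under sh4. LAMC3 was the member that fell, from 93.9, 38.8 and 58.3 to 27.1 and 12.7. Of 25 tested extracellular proteases and their inhibitors 7 rose and 3 fell (40% called against 8.16% over all genes). SERPINI1, an inhibitor of tissue plasminogen activator known from neurons, rose from 60.9, 36.7 and 53.1 to 409 and 729.9 and stood at 23.7 and 41 under sh8, so that the difference of sh4 from sh8 was 4.09 (SE 0.38, adjusted p 0.00113). ADAM19, a membrane protease, stood at 0, 3.14 and 1.74 in shlacZ and 81.3 and 160.5 under sh4. SERPINE2 rose from 1871, 3228 and 2639 to 5789 and 9164. In the other direction, the gelatinase MMP2 fell from 81.5, 40.8 and 44.4 to 10.2 and 9.7 while sh8 held 52.7 and 64.6, and the membrane-anchored MMP17 fell from 171, 349 and 259 to 106 and 50.8. LAMB1 (0.995 without the second sh4), LAMC3 (-1.65 without the third shlacZ and -1.11 without the second sh4) and MMP17 (-1.22 without the second sh4) no longer passed both thresholds without the library given.

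Axon guidance genes, which steer growing nerve fibres and migrating neural crest cells, were called in both directions with more rises. Of 33 tested 9 rose and 2 fell (4.79% and 3.37% over all genes), and 15 passed the adjusted p in the higher direction (10.5% over all genes). Without the first sh4 library 5 rose, and 1 fell without either the second sh4 or the third shlacZ library. Secreted semaphorins rose, SEMA3D from 99.1, 92.2 and 124 to 775 and 793 (2.90, SE 0.19, adjusted p 6.83e-05) and SEMA3A from 335, 248 and 311 to 1236 and 1368 (2.13). Both were higher than under sh8, where SEMA3D stood at 152 and 195 and SEMA3A at 569 and 643. The membrane-bound pair of the class 6 semaphorins moved apart. SEMA6A fell from 6934, 6302 and 5152 to 1961 and 1334, and SEMA6B rose from 133, 74.4 and 144 to 384 and 428. PLXNB1, a semaphorin receptor, rose from 219, 143 and 133 to 494 and 325. In the Eph receptor family EPHA2 rose (1.07) and EPHA3 fell (-1.07), among 15 tested (13.3% called against 8.16% over all genes). EPHA3 missed the fold with quantile scaling (-0.993). PLXNB1 (1.01 without the first sh4) and EPHA2 (0.94 without the first shlacZ and 0.97 without the second sh4) ceased to be called in those fits.

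Receptor tyrosine kinases and their ligands split evenly, with 4 of 26 tested genes higher and 4 lower (30.8% called against 8.16% over all genes). Without the second sh4 library 1 was higher and 2 lower. MET, the receptor of hepatocyte growth factor, fell from 11393, 13101 and 12747 to 3566 and 3888 (-1.73, SE 0.12, adjusted p 8.00e-05), below sh8 at 6921 and 8019.6. Both platelet-derived growth factor ligands on the list that were called rose, PDGFD from 217, 157 and 201 to 710.4 and 893 and PDGFC from 129, 57.6 and 76.6 to 269 and 365. FGF1, a fibroblast growth factor, went from 1.03, 2.09 and 7.83 to 39.5 and 56.7, and the receptor FGFR4 fell from 55.7, 50.3 and 56.5 to 9.03 and 14.9. IGF1 fell from 38.2, 32.5 and 27.8 to 14.7 and 3.73. PDGFC (1.68 without the second sh4), FGF1 (3.41 without the second sh4) and IGF1 (-1.96 without the second shlacZ, -2.07 without the third shlacZ and -1.10 without the second sh4) fell short of a call in these fits.

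**Figure D3:**
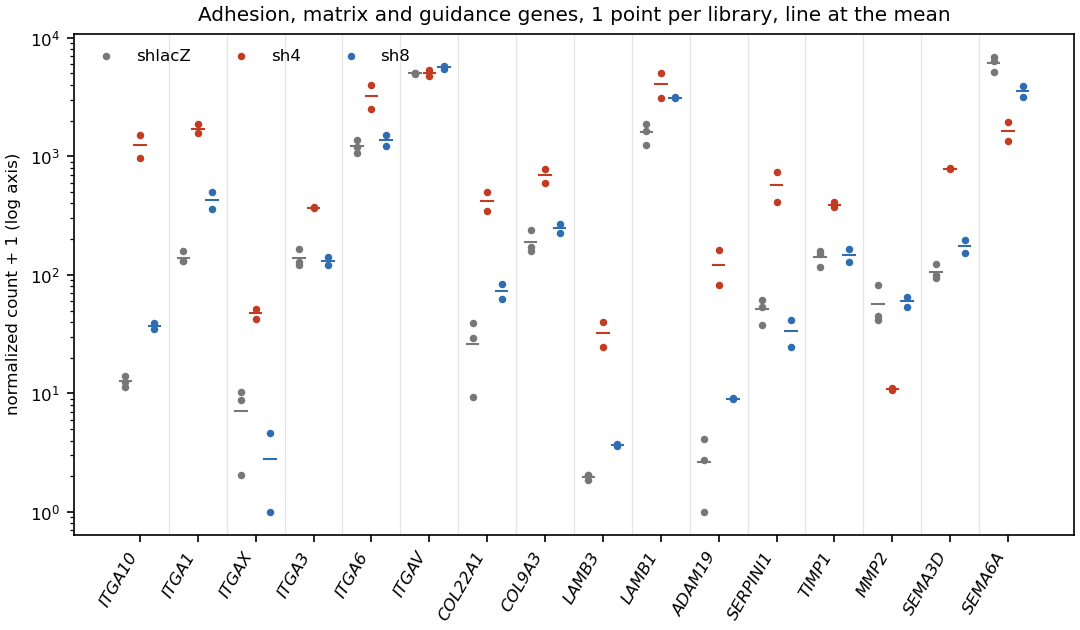
Normalized count + 1 (log axis) of genes of adhesion, matrix and guidance in each library, 1 point per library and a line at each group mean. For ITGA1, ITGA10 and SEMA3D both sh4 points lie above all shlacZ and sh8 points, and for MMP2 and SEMA6A both lie below.

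Genes of growth and biosynthesis were lower in large numbers and by small amounts. Ribosome biogenesis, which makes the parts of new ribosomes in the nucleolus, had 45 tested genes, of which 0 were higher and 26 lower at the adjusted p (11.9% of all genes were lower by that measure), with a median log2 fold change of -0.61 and of -0.32 under sh8. Only 2 reached the fold for a call, and without the first shlacZ library 11 did, without the second sh4 library 6, and without any one of the second or the third shlacZ or the first sh4 library 1. NOLC1, a nucleolar chaperone of small ribonucleoproteins, fell from 6119, 8032 and 7099.5 to 2988 and 3185 (-1.19, adjusted p 0.000564) and RRS1 from 464, 687 and 623 to 259 and 319 (-1.02, adjusted p 0.00579). MYC, a driver of this program, fell from 3679, 4823 and 5178 to 1740.3 and 1437 and stood at 3857 and 4289 under sh8. MXD4, which competes with MYC for the partner MAX, rose from 82.6, 53.4 and 87 to 276 and 175. RRS1 (-0.90 without the second shlacZ, -0.97 without the third shlacZ and -0.87 without the first sh4) and MXD4 (1.26 without the first sh4) lost the call when that library was left out.

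The same held for the translation machinery. Of 84 cytosolic ribosomal proteins 34 were lower and 0 higher at the adjusted p, against 11.9% and 10.5% of all genes. Their median was -0.41, against -0.18 over all genes with a mean over 2000. It was -0.28 with quantile scaling, and -0.14 under sh8. Of these proteins 1, RPL22L1, fell by the full thresholds (273, 348 and 258 to 122 and 117). Without the first shlacZ library 2 were called lower. RPL4 lay at 25783, 26705 and 26391 and 16796 and 18460.1. Of 78 mitochondrial ribosomal proteins 17 were lower, 0 higher and 2 called, MRPL18 (-1.07) and MRPL12 (-1.03), with 1 called without the second shlacZ library and 0 without the third shlacZ or the first sh4 library. The median of the mitochondrial ribosomal proteins was -0.27 under sh4 and -0.28 under sh8. Of 20 aminoacyl-tRNA synthetases, which load amino acids onto tRNA, 11 were lower and 0 higher at the adjusted p, and 0 were called. Their median was -0.51, and -0.20 under sh8. Without either the first shlacZ or the second sh4 library 1 was called lower. IARS1 lay at 5477, 6092 and 5850.3 in shlacZ and 3415 and 4029 under sh4 (-0.64, adjusted p 0.00396). Among 42 translation factors EIF4EBP1, the brake on cap-dependent initiation, was the 1 that fell (1029, 1420.3 and 1323 to 605 and 594). None was called without the second shlacZ library, 2 without the first and 3 without the second sh4 library. MRPL18 (-0.99 without the third shlacZ and -0.93 without the first sh4), MRPL12 (-0.86 without the second shlacZ, -0.95 without the third shlacZ and -0.88 without the first sh4) and EIF4EBP1 (-0.96 without the second shlacZ) no longer passed both thresholds without the library given.

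Host genes of small RNAs, taken by symbol, were called lower more often than higher. Of 57 tested 10 fell and 1 rose, against 3.37% and 4.79% over all genes. Among them were 26 hosts of small nucleolar RNAs, which mostly guide the modification of other RNAs, with 9 falls and 0 rises, and 31 hosts of microRNAs, with 1 fall and 1 rise. SNHG16 fell from 5043, 6038 and 5199.6 to 1754 and 1732 (-1.63, SE 0.12, adjusted p 8.00e-05), SNHG3 from 3499, 4294 and 3617 to 1423 and 1578 and SNHG1 from 2344, 2725 and 2048 to 1049 and 943. MIR22HG, the host of a microRNA, was the member that rose, from 46.4, 46.1 and 53.1 to 97.1 and 131. Without the first shlacZ library 3 members rose. MIR17HG, the host of a microRNA cluster that MYC is known to switch on, fell from 409, 278 and 318 to 137 and 155 with sh8 at 394 and 351, and sh4 was below sh8 by -1.35 (adjusted p 0.00631). MIR22HG (0.99 without the second sh4) ceased to be called in those fits.

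Genes of serine and one-carbon metabolism made up most of the falls among the targets of the integrated stress response, the program run by the factor ATF4. Of 26 tested 5 fell and 1 rose (23.1% called against 8.16% over all genes). The serine synthesis enzymes PHGDH and PSAT1 fell, PHGDH from 2485, 2889 and 2909.9 to 927 and 901 (-1.59, adjusted p 0.000110) and PSAT1 from 758, 827 and 793 to 296 and 329 (-1.34, adjusted p 0.000224). MTHFD2, the mitochondrial folate enzyme that uses the product of serine, fell from 1806, 2297 and 2094 to 542 and 627. ASNS, asparagine synthetase, fell from 509.8, 620.1 and 568 to 154 and 243, and the amino acid carrier SLC7A5 from 3958, 6044 and 4869.9 to 2153 and 2518. SLC7A11, the cystine carrier that feeds glutathione, moved the other way, from 2524, 3414 and 2858 to 6913 and 11835 (1.64, adjusted p 0.000754). Without the third shlacZ library 3 members rose and without the first sh4 library 2. Sh4 was below sh8 for PHGDH (-1.35, adjusted p 0.00183) and MTHFD2 (-1.12, adjusted p 0.00305), and the difference of PSAT1 missed the fold (-0.90). SLC7A5 (-0.91 without the second shlacZ and -0.96 without the first sh4) fell short of a call in these fits.

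DNA replication genes passed the adjusted p often without reaching a call. Of 53 tested, 23 were lower and 0 higher, with a median of -0.46 and of -0.35 under sh8. Over all genes 11.9% were lower and 10.5% higher by that measure, which also applies to the genes of mitosis below. Without the first shlacZ library 2 were called lower. PAICS, an enzyme of purine synthesis, lay at 8646, 10749 and 10394 in shlacZ and 6861 and 7819 under sh4. Of 46 genes of mitosis 13 were lower and 0 higher, and 0 were called, with 2 called lower without the first shlacZ library and 1 without the second sh4 library. The proliferation marker MKI67 lay at 20755, 22308 and 20471 and 16618 and 19498 (-0.23, adjusted p 0.238). Of 6 inhibitors of cyclin-dependent kinases CDKN1C rose from 26.8, 10.5 and 12.2 to 90.3 and 54.5 and CDKN2B from 101, 124 and 222 to 355 and 478, and 1 of them was called without either sh4 library. The share of these inhibitors called was 33.3%, against 8.16% over all genes. SKP2, which marks such inhibitors for destruction, fell from 2901, 3672 and 3518 to 1494 and 1631 (-1.10, adjusted p 0.000489). CCND1, cyclin D1, lay at 12244, 13455 and 17049.8 in shlacZ and 12731 and 13476 under sh4, with overlapping ranges. CDKN1C (1.78 without the first sh4) and CDKN2B (1.33 without the second sh4) lost the call when that library was left out.

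Of 70 tested histone genes 14 fell and 0 rose, against 3.37% and 4.79% over all genes. At the adjusted p 49 were lower and 0 higher, against 11.9% and 10.5% of all genes. The median was -0.79 against -0.38 under sh8. Replication-dependent histone transcripts are made in S phase and carry no poly(A) tail, and libraries made by removal of ribosomal RNA can hold them. H2BC7 fell from 2029, 2205 and 2050.4 to 848 and 797 (-1.35, SE 0.12, adjusted p 0.000117), H2BC13 from 1456, 1323 and 1475 to 615 and 561 and H3C13 from 1097, 1466 and 1363 to 601 and 486. H4C13 was the 1 member called lower than under sh8 (-1.25, adjusted p 0.0189). Copies of these genes are nearly identical, so the split of reads between them is uncertain. Without the second shlacZ library 1 histone gene was called higher.

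**Figure D4:**
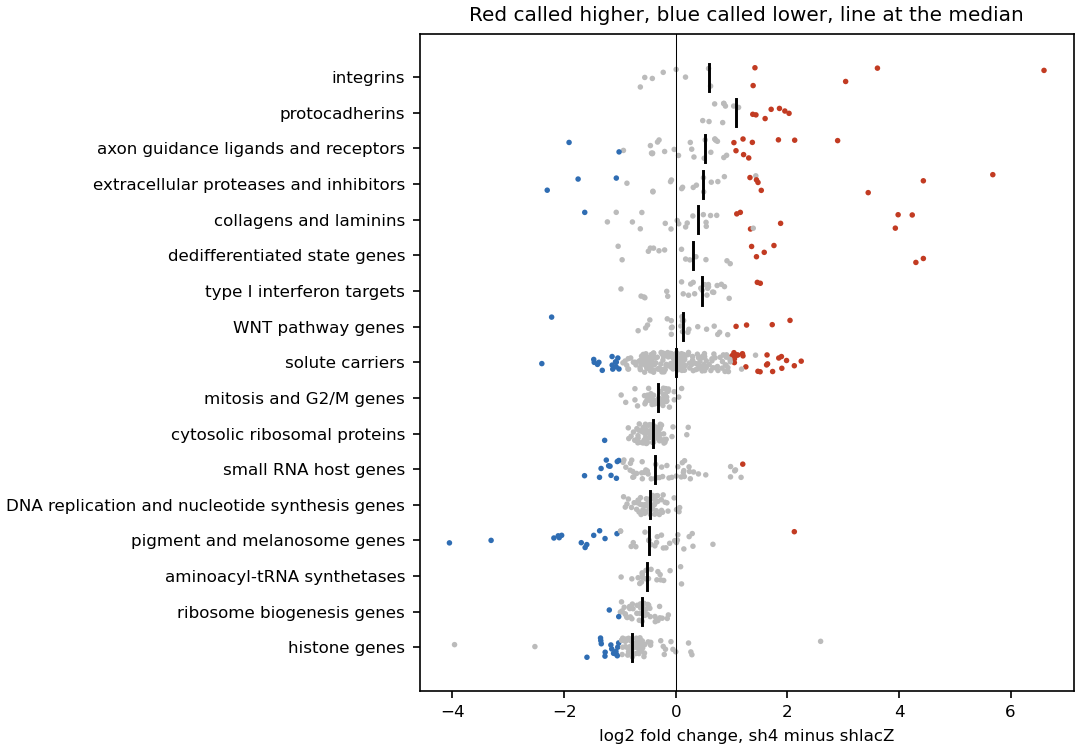
Each row is a gene list or family, with 1 point per tested member at its log2 fold change under sh4 against shlacZ, called members coloured and a line at the median. Histone genes, ribosome biogenesis genes and aminoacyl-tRNA synthetases lie mostly left of 0 with medians of -0.79, -0.61 and -0.51, while integrins and axon guidance genes lie mostly right of 0.

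Genes of energy and lipid metabolism were called at shares on both sides of the 8.16% called in either direction over all genes, 3.70% for the respiratory chain, 14.3% for glycolysis and hypoxia and 8.82% for cholesterol and fatty acid synthesis. PPARGC1B, a coactivator of mitochondrial genes, fell from 574, 656 and 632 to 236 and 222 with sh8 at 634 and 553, and the nuclear receptor ESRRA, which it acts on, from 407, 568 and 536 to 242 and 246. These regulators were the sole calls among 54 genes of the respiratory chain list. Of the 54, 7 were lower and 0 higher at the adjusted p, against 11.9% and 10.5% of all genes. Of 35 glycolysis and hypoxia genes 4 rose and 1 fell. The glucose carriers SLC2A3 (381, 504 and 823 to 1703 and 2223) and SLC2A1 (1209.6, 1656 and 1813 to 2804 and 3738) rose with NDRG1 (1.62) and the secreted hormone STC1. EGLN3, a hydroxylase that marks the hypoxia factor HIF for destruction, fell from 54.7, 69.1 and 42.6 to 5.65 and 8.21 and was lower than under sh8 (-1.97, adjusted p 0.0209). Of 34 genes of cholesterol and fatty acid synthesis 1 rose and 2 fell, with 5 falls without the first and 0 without the second shlacZ library. FASN, fatty acid synthase, fell from 6788, 11059.7 and 10168 to 4210.2 and 4313 (-1.10, adjusted p 0.00293). ESRRA (-0.93 without the second shlacZ and -0.97 without the third shlacZ), SLC2A1 (0.90 without the first shlacZ and 0.87 without the second sh4) and FASN (-0.96 without the second shlacZ) no longer passed both thresholds without the library given.

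Of 44 lysosome genes 2 rose, both cathepsins, and 0 fell, which is 4.55% called against 8.16% over all genes. CTSB, a lysosomal protease, rose from 8361, 12844 and 16203 to 38989.7 and 55038 (1.95, adjusted p 0.00108), and CTSS went from 7.22, 3.14 and 3.48 to 32.8 and 21.6. Without the first shlacZ library 4 lysosome genes rose, and without the second sh4 library 1 rose and 1 fell. CTSS (2.08 without the first sh4 and 2.66 without the second sh4) ceased to be called in those fits.

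WNT signalling genes included several feedback genes that beta-catenin and LEF1 are known to switch on. Of 27 tested 4 rose and 1 fell (18.5% called against 8.16% over all genes). NKD1 rose from 622, 843 and 847 to 2716 and 3673 and AXIN2 from 1030.0, 1291 and 1010.0 to 2378 and 2977, and the receptor FZD7 from 663, 831 and 845 to 1518 and 1773. NKD2, the paralog of NKD1, fell from 135, 123 and 132 to 36.1 and 20.2. Both NKD genes differed from sh8, NKD1 by 1.23 (adjusted p 0.00631) and NKD2 by -1.71 (adjusted p 0.00975), so the paralogs moved in opposite directions against either comparator. FZD7 (0.97 without the first shlacZ and 0.97 without the second sh4) fell short of a call in these fits.

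TGF-beta and BMP pathway genes held 4 rises and 2 falls among 33. The share called was 18.2%, and 13.6% for the Notch pathway genes below, against 8.16% over all genes. The receptor TGFBR2 rose from 299, 312 and 398 to 640.3 and 961 and the ubiquitin ligase SMURF2, which limits the pathway, from 357, 464 and 459 to 901 and 1202. The ligand TGFB2 fell from 22.7, 15.7 and 11.3 to 3.39 and 1.49 and the BMP mediator SMAD9 from 732, 544 and 509 to 294 and 272. Without the second sh4 library 1 fell. None of these differed from sh8 by the full thresholds. In the Notch pathway HES1, its classical target, fell from 541, 543 and 579 to 174 and 199 (-1.57, adjusted p 0.000146), the coactivator MAML3 rose from 1195, 1081 and 1174 to 2971 and 2782 and the receptor NOTCH4 from 34.1, 18.9 and 23.5 to 53.1 and 61.9. That made 2 rises and 1 fall of 22, with 1 rise without the second sh4 library and 2 falls without the first shlacZ or the first sh4 library. TGFBR2 (0.94 without the second sh4), TGFB2 (-1.95 without the second sh4), SMAD9 (-0.89 without the first shlacZ and -0.997 without the second sh4) and NOTCH4 (0.99 without the second shlacZ, 1.15 without the third shlacZ, 1.29 without the first sh4 and 1.07 without the second sh4) lost the call when that library was left out.

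Interferon targets were called about as often as all genes, with 7.41% against 8.16%, and JAK and STAT3 pathway genes more often, with 16.7%. Of 27 tested type I interferon targets 2 rose, ISG15 (29.9, 31.4 and 53.9 to 126 and 91.8) and OAS1 (17.5, 22 and 23.5 to 75.7 and 46.3), 0 fell, 8 were higher and 4 lower at the adjusted p, and the median was 0.47 against 0.07 under sh8. The number that rose was 4 without the first shlacZ library, 1 without the second or the third or without the second sh4 library, and 0 without the first sh4 library. Without the second shlacZ library 1 fell. The receptor chain IFNGR1 stood at 512, 507 and 492 in shlacZ and 466 and 475 under sh4. Of 20 genes of MHC class I and antigen processing 0 were called, and B2M, the common light chain, lay at 2167, 2414 and 2543 and 2690.1 and 2962. In the MHC list 1 rose without the first shlacZ library. JAK and STAT3 pathway genes had 3 rises among 18, CEBPD (58.8, 109 and 72.2 to 251 and 331), BCL6 (219, 165 and 243 to 535 and 559) and the kinase PIM1 (295, 197 and 155 to 413 and 448), and 5 without the first shlacZ library. ISG15 (1.29 without the first sh4 and 1.74 without the second sh4), OAS1 (1.498 without the second shlacZ, 1.54 without the third shlacZ, 1.11 without the first sh4 and 1.81 without the second sh4) and PIM1 (0.83 without the third shlacZ, 1.10 without the first sh4 and 0.99 without the second sh4) no longer passed both thresholds without the library given.

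The granins and genes of peptide hormone processing gave 3 rises among 5 tested (60% called against 8.16% over all genes). VGF, a precursor of secreted neuropeptides, rose from 1806, 1398 and 1648 to 16279.6 and 17362, while under sh8 it fell to 285 and 591. It was 1 of 2 genes called in opposite directions by the hairpins, and the other was BICDL1, an adaptor of the motor dynein (97, 70.2 and 104 in shlacZ, 230.4 and 181 under sh4 and 40.9 and 41 under sh8). PAM, the enzyme that amidates peptide hormones, rose from 623, 513 and 591 to 1709 and 2106 with sh8 at 871 and 939, and NPTX1, a secreted pentraxin of synapses, from 2.06, 9.43 and 17.4 to 72.3 and 93.3. The VGF promoter is known for a cyclic AMP response element, TGACGTCA, and is shown with it in capitals, from RefSeq on GRCh38.p14. The element starts the match 79 bases before the gene's start. BICDL1 (1.01 without the first sh4) and NPTX1 (3.13 without the second sh4) ceased to be called in those fits.
VGF, chr7:101165570-101165819, minus strand: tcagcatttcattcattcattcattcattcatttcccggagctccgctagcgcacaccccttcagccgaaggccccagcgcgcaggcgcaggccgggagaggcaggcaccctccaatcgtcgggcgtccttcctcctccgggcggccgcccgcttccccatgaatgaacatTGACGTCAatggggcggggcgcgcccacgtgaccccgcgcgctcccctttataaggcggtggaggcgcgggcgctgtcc
The letters TGACGTCA were present in 3.06% of all matched promoters, in 1.56% of those of genes that rose and in 1.80% of those of genes that fell, so that VGF was 1 of 8 such genes among the rises.

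Transporters and channels were called in both directions. The shares called were 17.2% of the solute carriers, 25.8% of the ABC transporters and 22.2% of the potassium channels, against 8.16% over all genes. Of 215 solute carriers, grouped by symbol, 23 rose and 14 fell. Without the first sh4 library 13 rose, and without the second 10 rose and 8 fell. The zinc and manganese carrier SLC39A8 rose from 576, 619 and 793 to 2682 and 3633 (2.25, adjusted p 0.000115), and SLC5A4 of the sodium-glucose family fell from 391, 224 and 249 to 70 and 38.8 to the level of sh8 (56.7 and 62.8). Of 31 ABC transporters 6 rose and 2 fell, and without the first sh4 library 3 rose. ABCB1, the multidrug efflux pump, rose from 300.3, 297 and 362 to 980.3 and 1373, in contrast to its relative ABCB5 above. ABCA3, a lipid pump, rose from 11.4, 11.5 and 13.9 to 107 and 59.7 and the peroxisomal ABCD2 from 4.13, 6.28 and 4.35 to 40.7 and 51.5. Of 27 potassium channel genes 2 rose and 4 fell, with 1 rise without the second or the third shlacZ or the second sh4 library. KCNAB2, an auxiliary subunit, fell from 4263, 3268 and 2952 to 976 and 578 (-2.20, adjusted p 0.000207) and the pore subunit KCND1 rose from 17.5, 9.43 and 6.96 to 56.5 and 70.9.

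Other families gave single pictures. Of 16 protocadherins 7 rose, among them PCDHGA12 (39.2, 84.8 and 45.2 to 133 and 159.7) and PCDHGA8 (13.4, 12.6 and 20.9 to 35 and 66.4). The share called was 43.75% against 8.16% over all genes, and the list median was 1.08 under sh4 and 1.07 under sh8. Without the second shlacZ library 3 rose and without either sh4 library 1, and the exons shared by the gamma cluster leave the split of reads uncertain. Of 19 tested tubulins 1 rose and 1 fell, with 10.5% called against 8.16% over all genes. TUBB4A fell from 6117, 6277 and 7732 to 1829.5 and 1625, and TUBA1A rose from 549, 432 and 581 to 1081 and 1539. Tubulins called lower were 4 without the first shlacZ or the second sh4 library. S100A16 and S100A13, calcium-binding proteins encoded side by side, rose among 6 tested S100 genes (33.3% called). S100A16 went from 68.1, 81.7 and 78.3 to 356 and 553. The family of 419 zinc finger ZNF genes was nearly still, with 4 rises and 5 falls, under the background of 4.79% and 3.37%. Leaving out single libraries gave 1 to 7 rises and 3 to 5 falls, the extremes of the rises without either sh4 library and without the first shlacZ library, and the 3 falls without either of the other shlacZ libraries. None of 27 HOX genes, 37 proteasome subunits or 15 mitochondrially encoded genes was called by limma, where 1, 1 and 0 passed the adjusted p. Without the second sh4 library 1 mitochondrially encoded gene was called lower. Of 17 genes of the BCL2 family 1 was called (5.88%). It was BMF, which promotes cell death and rose from 193, 143 and 160.1 to 729.6 and 744. MCL1, which opposes cell death, lay at 1898, 2062 and 2437 and 2072 and 2309. Without the third shlacZ library 2 of this family rose. GAGE12F, a cancer-testis antigen with near-identical copies, lay at 26.8, 37.7 and 15.7 in shlacZ and had no read in either sh4 library. With a floor of 3 reads over the sh4 group it was at least 19.8-fold lower than the control mean. PCDHGA12 (1.57 without the first sh4 and 1.31 without the second sh4) and PCDHGA8 (1.47 without the second shlacZ and 1.15 without the second sh4) fell short of a call in these fits.

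Several genes best known from blood and lymphoid cells rose under sh4, as did ZAP70 and LYZ of the marker lists. The genes named here were chosen after their values were seen, apart from LYZ, LMO2 and ZAP70 above, as were the RUNX, Fc receptor and GATA genes that follow and the genes named for their place in a row of neighbours. GZMA, a protease of cytotoxic granules, had no read in the 3 shlacZ and the 2 sh8 libraries and stood at 74.5 and 166 under sh4 (adjusted p 0.000276 by limma, and 0.00183 against sh8). With a floor of 3 reads over the control group, the sh4 mean was at least 123-fold higher. The exact 95% counting interval of the ratio started at 107-fold. PRDM1, a repressor that ends B cell identity, went from 2.06, 1.05 and 0.87 to 54.2 and 129 with sh8 at 3.95 and 4.55. The adaptor LCP2 went from 0, 0 and 0.87 to 33.9 and 55.2. SH2D2A, another adaptor of T cells, went from 1.03, 3.14 and 1.74 to 30.5 and 63.4, and the receptor CD28 from 5.16, 2.09 and 1.74 to 39.5 and 15.7. All of these were called, and their sh4 libraries lay above every shlacZ library. SYK, a kinase of the same family as ZAP70, rose from 439, 562 and 562 to 1475 and 1725 and was higher than under sh8 (1.16, adjusted p 0.00423). CD28 (2.16 without the first sh4) lost the call when that library was left out.

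The RUNX factors, which act in blood and bone lineages, were all 3 called and did not move together. RUNX3 rose from 795, 1225 and 1231 to 2995 and 3266 with sh8 at 1906 and 2212, and RUNX2 from 130.0, 215 and 178 to 770.2 and 867 with sh8 at 799 and 865. RUNX1 fell from 265, 459.8 and 308 to 167 and 144 and was as low under sh8, at 171 and 130.1. Other genes of blood cells fell. FCGR2A and FCGR2B, receptors for antibodies, went from 74.3, 32.5 and 34.8 to 16.9 and 6.72 and from 26.8, 13.6 and 10.4 to 5.65 and 2.24, FCRLA, a related protein that pigment cells also make, from 60.9, 24.1 and 35.7 to 9.03 and 4.48, and GATA3 from 11.4, 20.9 and 14.8 to 3.39 and 3.73. The part of other cells or of other transcripts matching the hairpin in these values was not tested. RUNX1 (-0.88 without the second shlacZ, -1.21 without the first sh4 and -0.998 without the second sh4), FCGR2A (-1.32 without the second sh4), FCGR2B (-1.48 without the first shlacZ, -1.94 without the second shlacZ, -2.12 without the third shlacZ, -2.37 without the first sh4 and -1.33 without the second sh4), FCRLA (-1.94 without the second sh4) and GATA3 (-1.62 without the second shlacZ, -1.85 without the third shlacZ, -1.78 without the first sh4 and -1.89 without the second sh4) no longer passed both thresholds without the library given.

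Neighbouring genes were called together in 22 places, taking 3 or more tested genes in a row on a chromosome called in the same direction, 15 of them higher and 7 lower. On chromosome 12 from 27332836 to 27700574 (hg38) the clock factor BMAL2, SMCO2, the liprin PPFIBP1 and REP15 rose in a row. BMAL2 went from 124, 95.3 and 104 to 436 and 538, PPFIBP1 from 2566, 2695 and 2964 to 8642 and 11369.8 and REP15 from 34.1, 16.8 and 27.8 to 99.4 and 121. SMCO2, nearly silent in the control at 0, 0 and 1.74, reached 53.1 and 120.2. On chromosome 14 from 20684560 to 20802855 the secreted ribonucleases RNASE4, RNASE6 and RNASE1 rose together. RNASE4 went from 29.9, 17.8 and 11.3 to 68.9 and 70.2. RNASE6 had 1 read in the 3 shlacZ libraries together and 33.9 and 20.9 normalized counts under sh4. RNASE4 (1.88 without the first sh4 and 1.86 without the second sh4) ceased to be called in those fits.

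On chromosome 5 from 142310427 to 142698070 SPRY4, a feedback inhibitor of growth factor signals, SPRY4-AS1 and FGF1 rose, SPRY4 from 1192, 1484 and 2547 to 3844 and 4098 and SPRY4-AS1 from 42.3, 19.9 and 32.2 to 119 and 137. On chromosome 2 from 172084740 to 172506459 the homeobox pair DLX1 (232, 302 and 304 to 580.5 and 772) and DLX2 (38.2, 55.5 and 75.7 to 114 and 165) rose with ITGA6. Among the falls, chromosome 5 from 987180 to 1295068 held LINC02982, NKD2, SLC12A7 and TERT, the catalytic subunit of telomerase, which went from 666, 633 and 578 to 216 and 163. On chromosome 11 from 69048932 to 69481545 TPCN2, a channel of melanosomes and lysosomes, fell from 658, 464 and 433 to 216 and 156, together with MYEOV (49.5, 58.7 and 93.1 to 9.03 and 9.7) and LINC02747. A row is broken where a member is not called. The row FCGR2A, FCGR2B and FCRLA lies on chromosome 1 from 161505430 to 161714352. Neighbours can share enhancers, copy number or reads that run on past a gene, and the part of these in the rows was not tested. SPRY4 (1.31 without the first sh4 and 1.22 without the second sh4), DLX2 (1.06 without the second sh4), LINC02982 (-1.74 without the first sh4), SLC12A7 (-0.98 without the second shlacZ and -0.87 without the second sh4) and LINC02747 (-0.98 without the first shlacZ, -1.34 without the first sh4 and -1.04 without the second sh4) fell short of a call in these fits.

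Among non-coding RNAs 16 of 234 LINC genes rose and 25 fell, with 17.5% called. Of 404 antisense RNAs 28 rose and 13 fell, with 10.1% called, against 8.16% over all genes. These counts leaned on single libraries. Without the first shlacZ library 46 antisense RNAs and 29 LINC genes rose, and without the second shlacZ library 9 and without the third 13 antisense RNAs. Leaving out an sh4 library left 4 or 5 antisense and 6 or 7 LINC rises, the lower of each without the second, with 6 antisense falls without either and 16 or 13 LINC falls without the first or the second. Without the third shlacZ library 6 antisense RNAs fell. LINC00173 rose from 77.4, 15.7 and 18.3 to 220.2 and 192, and LINC00052 fell from 57.8, 59.7 and 33.1 to 1.13 and 4.48 with sh8 at 36.9 and 4.55. BCAN-AS1, opposite the proteoglycan gene BCAN, rose from 14.4, 3.14 and 9.57 to 59.9 and 68.7 while BCAN fell from 383, 282 and 304 to 84.7 and 65.7. With strand use in counting not stated, antisense levels remain uncertain. LINC00173 (2.72 without the first sh4 and 2.91 without the second sh4), LINC00052 (-3.18 without the first sh4) and BCAN-AS1 (2.79 without the second sh4) lost the call when that library was left out.

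How much of the sh4 result was particular to sh4 was asked by testing sh4 against sh8 in the same fit. Sh4 was called higher than sh8 for 297 genes (1.93%) and lower for 195 (1.26%). Of the 1259 genes called against shlacZ 354 (28.1%) also passed in the same direction against sh8, 207 of the rises (1.34% of all tested genes) and 147 of the falls (0.953%). This count varied with the libraries and was 96 without the second sh4, 147 without the first sh8 and 210 without the second sh8 library. The 3 comparisons share libraries, so these counts describe overlap by construction and are not a test.

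Only those of the 354 genes that had a symbol and reached a mean of 50 were asked whether sh8 stayed near the control. Among them sh8 was within 0.5 of the control on the log2 scale for 190, 111 rises and 79 falls. Genes of lower level or without a symbol were not counted, so 190 is not to be read as a share of the 354. The rises with a mean of at least 50 were led, after ATP6V1C2, by RHOU, a GTPase of cell shape (36.1, 38.8 and 61.8 in shlacZ, 201 and 411 under sh4, 29 and 72.8 under sh8), and by RASSF2, a RAS effector of the tumour suppressor class (131, 72.3 and 103, 469.8 and 414 and 59.3 and 87.4). The long non-coding RNA BLACAT1 stood at 24.8, 17.8 and 20, 141 and 152 and 19.8 and 30 in the same order. In each of these both sh4 libraries lay above all other libraries, which the choice of genes largely requires. SERPINB8, an intracellular protease inhibitor, rose from 47.5, 56.6 and 63.5 to 238 and 388 with sh8 at 60.6 and 47.3. MFSD6, a membrane transporter, rose from 107, 71.2 and 87.9 to 632 and 693 with sh8 at 104 and 137. NAT16, an acetyltransferase, and DNAH7, a dynein of cilia, completed the 8, with differences from sh8 of 2.40 and 2.37. NAT16 (1.97 without the first sh4) no longer passed both thresholds without the library given.

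The falls were led by TEX15, a germ cell protein (239, 214 and 215 in shlacZ, 21.5 and 32.1 under sh4, 244 and 204 under sh8). DENND2D, a regulator of RAB GTPases, fell from 907, 715 and 839 to 264 and 143 with sh8 at 800.1 and 1101, and GALNT3, an enzyme that starts mucin-type sugar chains, from 1033, 838 and 863 to 309 and 154 with sh8 at 1004 and 1090.3. The epithelial splicing factor ESRP1 lay at 206, 283 and 214, 42.9 and 53.7 and 279 and 150.2 in the same order of groups. Both sh4 libraries were thus well under the 5 others, again as the choice of genes largely requires. PPP1R14B, an inhibitor subunit of a protein phosphatase, fell from 893, 1424 and 1342 to 225 and 243 with sh8 at 961 and 1002, and KCTD12, an auxiliary subunit of GABA receptors, from 109, 208 and 124 to 29.4 and 44 with sh8 at 182 and 147. ZNF197 and SNAI2 completed the 8, with differences from sh8 of -2.18 and -2.12. CD83, a surface protein of dendritic cells and the sole call among 19 NF-kB genes, fell from 173, 243 and 224 to 75.7 and 67.2 with sh8 at 208 and 220.2. Without the first shlacZ library 2 genes of that list fell.

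**Figure D5:**
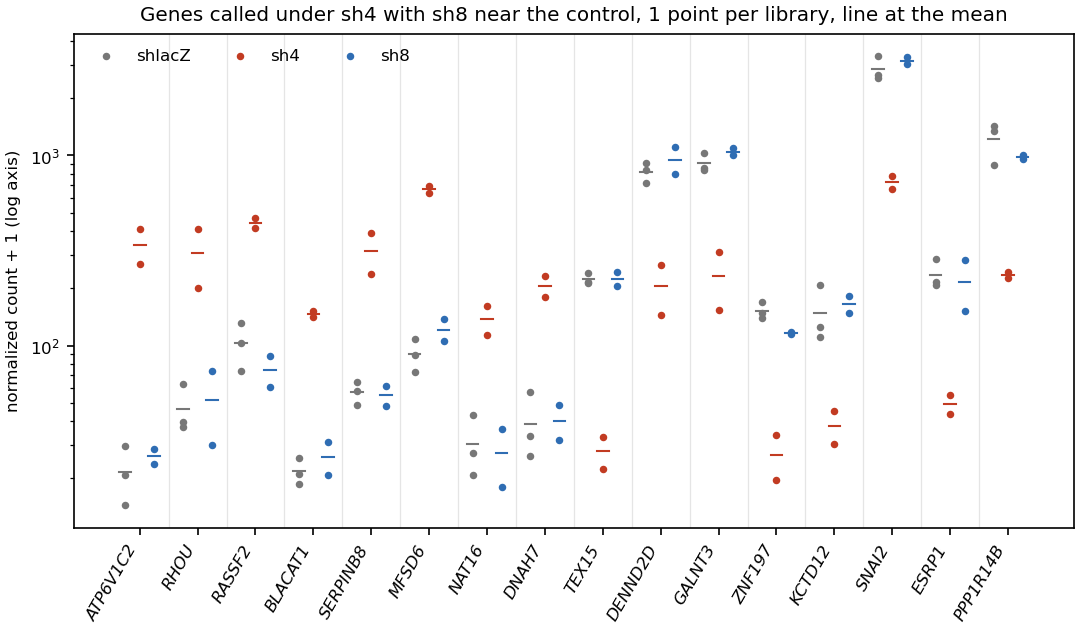
Normalized count + 1 (log axis) in each of the 7 libraries of the genes that lead the difference between sh4 and sh8 while sh8 stays near the control, with a line at each group mean. The 2 sh4 points lie apart from the 5 others for each of the 16 genes, as for SNAI2 at 668 and 779 against 2543 to 3327. The genes were chosen for this separation from shlacZ and for a call against sh8, so it is largely fixed by the choice.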

How the data were processed

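RNA-seq was analysed from 7 libraries of doxycycline-treated 501Mel cells with a hairpin against lacZ (n = 3), sh4 (n = 2) or sh8 (n = 2), grouped by their labels. The study states that total RNA was stripped of rRNA and made into stranded libraries. Reads were trimmed (cutadapt), mapped to hg38 (STAR), quantified per gene (Salmon) and scaled by size factors. Versions and the annotation release are not given in the sources used here. The authors deposited normalized counts with decimal commas, that is, counts divided by 1 size factor per library. Such scaling assumes that most genes do not change. Divided by what 1 read is worth in its library, 100% of the values came within 0.1 of a whole number, and these recovered reads gave the depth of 13337317 to 22855232 per library. A gene needed 10 reads over the libraries to be in the table. There were 0 columns of other samples.

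The values were put on the log2(normalized count + 1) scale and tested with limma 3.58.1 (R 4.3.3), with its variance trend, in a fit of 3 groups with 4 residual degrees of freedom, over 15420 genes with a mean of at least 10. This scale understates the change of low genes. No count model was used. Called means a Benjamini-Hochberg adjusted p under 0.05 over all genes and an absolute log2 fold change over 1, for sh4 minus shlacZ and for sh4 minus sh8 alike. The script was checked on simulated data. GENCODE release 44 held 21281 (99.9%) of the gene identifiers and gave coordinates, biotypes and 233 symbols, and promoters were taken from RefSeq on GRCh38.p14 by symbol.

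The genes, the 45 lists and 20 families by symbol, and the tests were chosen with earlier results of these data known. Named were GRASLND and RNF144A, the 12 highest and 12 lowest calls with a mean of at least 50, up to 6 called members per list, the 8 highest and 8 lowest by sh4 minus sh8 with sh8 within 0.5 of the control, and genes the study names. The genes ranked as highest and lowest also had to have both sh4 libraries beyond all shlacZ libraries. Some genes were left out for length, and genes named outside the rule are marked as such. Alternatives were the pseudocount (0.5 and 10), no minimum mean or one of 50, upper quartile and quantile scaling, no variance trend, 5 libraries only, the replicate number as a block, each library left out, and limma-voom on the recovered reads, the last added after the data were seen. Replicate numbers were not taken as pairs, and whether libraries of the same number share a batch is not known. Intervals and floors cover counting error only. Genes that are withheld are not reported here.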

Additional observations from a re-analysis of the deposited data

Results flagged for a closer look

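Of the genes called under sh4, 354 also differed between sh4 and sh8 in the same direction, which is what put the following values here. The difference itself was tested in limma, and the 89 named genes below passed an adjusted p under 0.05 with an absolute log2 difference (sh4 minus sh8) over 1. The number of these that still passed was 87 to 89 without any one shlacZ library, 69 without the first and 39 without the second sh4 library, and 52 and 61 without the first and the second sh8 library. Among pigment and lineage genes sh4 was lower than sh8, with log2 differences of -2.48 for ABCB5, -2.30 for DCT, -1.74 for BCAN, -1.62 for TRPM1, -1.62 for TSPAN10, -1.54 for TYRP1, -1.40 for EDNRB, -1.18 for TRIM63, -1.01 for MLANA and -2.12 for SNAI2. In the integrins and matrix proteins the differences were 5.05 for ITGA10, 4.45 for ITGAX, 2.00 for ITGA1, 1.49 for ITGA3, 1.22 for ITGA6, 3.09 for LAMB3, 2.52 for COL22A1 and 1.48 for COL9A3. Extracellular proteases and inhibitors differed by 4.09 for SERPINI1, 3.67 for ADAM19, 1.22 for SERPINE2 and -2.44 for MMP2. Guidance genes, kinases and growth factors differed by 2.18 for SEMA3D, 1.37 for SEMA6B, 1.10 for SEMA3A, -1.13 for SEMA6A, -1.07 for EPHA3, 1.70 for PDGFD, -1.0004 for MET and 1.16 for SYK. For metabolism, growth and the cytoskeleton the values were -1.36 for MYC, -1.12 for MTHFD2, -1.35 for PHGDH, -1.37 for PPARGC1B, -1.97 for EGLN3, -1.35 for MIR17HG, -1.25 for H4C13 and -1.46 for TUBB4A. Signalling genes gave 1.23 for NKD1, -1.71 for NKD2, 1.07 for PIM1, -1.57 for CD83 and 2.09 for STC1.

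Genes of secretion, transport and channels gave 5.35 for VGF, 1.07 for PAM, 2.09 for ABCA3, 1.005 for SLC39A8, -1.46 for KCNAB2 and 2.15 for S100A16. Genes best known from blood cells gave 5.82 for LYZ, 3.60 for LMO2, 4.01 for PRDM1, 2.67 for SH2D2A, 2.00 for ZAP70, 2.04 for OTULINL and -2.54 for FCRLA. The genes that lead the rises with sh8 near the control differed by 3.67 for ATP6V1C2, 2.62 for RHOU, 2.60 for RASSF2, 2.54 for BLACAT1, 2.48 for SERPINB8, 2.46 for MFSD6, 2.40 for NAT16 and 2.37 for DNAH7. The corresponding falls were -3.04 for TEX15, -2.26 for DENND2D, -2.26 for GALNT3, -2.18 for ZNF197, -2.16 for KCTD12, -2.07 for ESRP1 and -2.06 for PPP1R14B. Other rises beyond sh8 were 2.89 for CRIP2, 2.503 for EXPH5, 2.49 for TMEM158, 2.04 for OTULINL, 1.62 for BMAL2, 3.09 for SMCO2, 2.29 for BICDL1 and 2.75 for BCAN-AS1. Other falls beyond sh8 were -1.95 for SPEF2, -1.93 for CFAP61, -1.79 for CDH7, -1.62 for LINC02223, -2.11 for LURAP1L-AS1, -2.11 for MYEOV, -1.17 for LINC02747 and -3.68 for PNLIPRP3. For genes with no read in a group the fitted value depends on the pseudocount and is no bound, as for GZMA (6.81) and GAGE12F (-3.88). NCKAP5 (-4.64) had no read in 1 sh4 library. No explanation of these differences was tested.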

How the results depend on the processing

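With 2 sh4 libraries the counts rest on each of them, and depth limits the genes with a mean under 50, which gave 365 of the 1259 calls. Leaving out single libraries gave 769 to 1600 calls in all, 385 to 1014 of them higher, the lowest without the second sh4 library and the highest without the first shlacZ library. Without the first sh4 library 488 were higher. Calls that also differed from sh8 ran from 96 to 455 in these fits, and were 147 without the first and 210 without the second sh8 library. The direction of GRASLND held throughout, but its fold fell short of a call with a pseudocount of 10 (-0.98), with upper quartile scaling (-0.97) and without the second shlacZ or the second sh4 library, in a range of -1.23 to -0.82. The other settings for the counts, limma-voom (added after seeing the data) among them, gave 502 to 868 higher and 393 to 588 lower.

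Of 189 named genes that were called, 131 kept the call in each alternative in which they were tested and 58 lost it in at least 1. Quantile scaling was the sole alternative to take the call from EPHA3 (-0.993) and PMEL (-0.987). A sign turned only among named genes that were not called. CCND1 was 0.14 with quantile scaling, 0.029 with the replicate block and -0.21 to 0.029 with libraries left out, MKI67 0.049 with quantile scaling, MCL1 -0.035 to 0.14, SLC45A2 -0.18 to 0.23 and SCARNA2 -9.57 to 0.97 with libraries left out. The cause was not tested. Replicate numbers are shared between the groups, and libraries of the same number deviated together with correlations of -0.08 to 0.34. The numbers were not taken as pairs, although such correlations cannot show whether libraries of the same number shared a batch. A fit with the replicate block gave 770 higher and 517 lower, 419 of them also different from sh8, and a fold of -1.07 for GRASLND.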

Other observations

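SCARNA2, a small Cajal body RNA, differed widely within each group and lay at 2035, 1401 and 153 normalized counts in shlacZ, 1491 and 0 under sh4 and 0 and 1980.3 under sh8. The histone gene H2AC19 lay at 2466, 5004 and 1677, 1503 and 151 and 170.0 and 1586 in the same order. Neither was called (adjusted p 0.374 and 0.0993 by limma). They were chosen after their values were seen.

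Genes of the retinoid pathway, also chosen after their values were seen, were called in opposite directions. STRA6, a receptor that brings retinol into the cell, had no read in any shlacZ library and stood at 12.4 and 67.2 under sh4 and 2.64 and 3.64 under sh8. With a floor of 3 reads over the control group, the sh4 mean was at least 40.8-fold higher. The exact 95% counting interval of the ratio started at 37.1-fold and leaves out the spread between the sh4 libraries. LRAT, which stores retinol as esters, fell from 77.4, 39.8 and 42.6 to 3.39 and 2.24 with sh8 at 11.9 and 5.46. NCKAP5, a microtubule-associated protein, lay at 26.8, 28.3 and 26.1 in shlacZ, 0 and 1.49 under sh4 and 43.5 and 33.7 under sh8, and was called lower than in both other groups. PNLIPRP3, a relative of pancreatic lipase, lay at 42.3, 40.8 and 53.1, 0 and 2.99 and 33 and 18.2 and was likewise called lower. STRA6 (3.75 without the second sh4) ceased to be called in those fits.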
